A study of Mus musculus with 6 samples.

Results

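The TGF-β ligand, receptor and SMAD genes were followed in pathogenic Th17 cells that carried either wild-type (WT) RORγt or the RORγtN275D protein. The 10 genes, the ligands *Tgfb1* and *Tgfb3*, the receptors *Tgfbr1*, *Tgfbr2* and *Tgfbr3*, the SMADs *Smad2*, *Smad3*, *Smad4* and *Smad7*, and the co-repressor *Skil*, were taken by symbol from the 16244 genes of the table, under a rule that sets no threshold on their values. All 10 passed the filter on low values (a mean of at least 10 normalized reads over the 6 libraries) and were among the 11908 genes tested. Naive CD4+ T cells from the spleens of WT mice and of RORγtN275D knockin mice, both on a C57BL/6 background, were activated with anti-CD3 and anti-CD28 for 3 days under pathogenic Th17 conditions, and poly-A RNA was sequenced from 3 libraries of each genotype. The question put to these libraries was which transcripts differ with the mutation, an exchange of asparagine for aspartate in the ligand-binding domain of RORγt, under inflammatory cytokines. IL-6, IL-1β and IL-23 are named for these cultures in one description, whereas the culture methods add IL-23 and IL-1β to a mixture that already holds IL-6, TGF-β and antibodies to IL-4 and IFN-γ. Whether TGF-β itself was added therefore cannot be told, and no difference in the medium between genotypes is described. The methods describe young adult mice of both sexes, matched for age and sex between groups, for the study as a whole. The zygosity and sex of the donors of these libraries are not given in the sources used here. Nor is it stated whether the 3 libraries of a genotype came from separate mice or cultures. The p-values therefore rest on the spread between these libraries, which may be technical. For the limma test, that spread is drawn largely from other genes of like level. The WT line is listed as C57BL/6NJ, and a difference in substrain or source between the mouse lines and the mutation itself cannot be told apart.

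TGF-β is secreted as a latent complex and, once released, is bound by the type II receptor TGFBR2, which recruits and phosphorylates the type I receptor TGFBR1. The type III receptor TGFBR3 (betaglycan) presents ligand to TGFBR2. TGFBR1 then phosphorylates SMAD2 and SMAD3, which enter the nucleus with SMAD4, while SMAD7 blocks the receptors and SKIL (SnoN) represses SMAD target genes. In CD4+ T cells TGF-β restrains Th1 and cytotoxic genes, is needed for regulatory T cells and, together with IL-6, induces the Th17 programme.

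Reads on genes ranged from 17659035 to 18510878 per library. WT replicate 3 stood farthest from the other libraries of its genotype, with a median chi-square over genes (squared count differences over their counting variance) of 2.95 and 3.02 times its expected median against WT replicates 1 and 2. The same measure was 1.32 to 1.54 among the RORγtN275D libraries and 1.37 between WT replicates 1 and 2. All 9 Th17 marker genes were detected.

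Of the 10 genes, 5 were higher in RORγtN275D cells (*Tgfb3*, *Tgfbr2*, *Tgfbr3*, *Smad3* and *Skil*), 1 was lower (*Tgfb1*) and 4 did not pass the test (*Tgfbr1*, *Smad2*, *Smad4* and *Smad7*), at an adjusted p under 0.05. The share called, 60.0%, lies near the 50.9% of all tested genes that were called. By direction, 24.7% of all tested genes were called higher and 26.1% lower. The median log2 fold change of the 10 genes (N275D over WT, on the scale log2(normalized reads + 1)) was 0.13, against -0.0026 for all tested genes. The median size of the change regardless of sign was 0.20 for the 10 genes and 0.19 for all tested genes. No member passed the test with a change of 2-fold or more by limma, edgeR or DESeq2 (0 of 10 by each), where 7 had an unadjusted limma p under 0.05 and 3.59% of all tested genes were called at that size. The 3 libraries of one genotype lay wholly above or below those of the other for 6 members, a pattern found in 57.7% of all tested genes. For 5 of the 6 members the RORγtN275D libraries were the higher ones (28.1% of all tested genes) and for 1 the lower (29.6%).

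**Figure D1:**
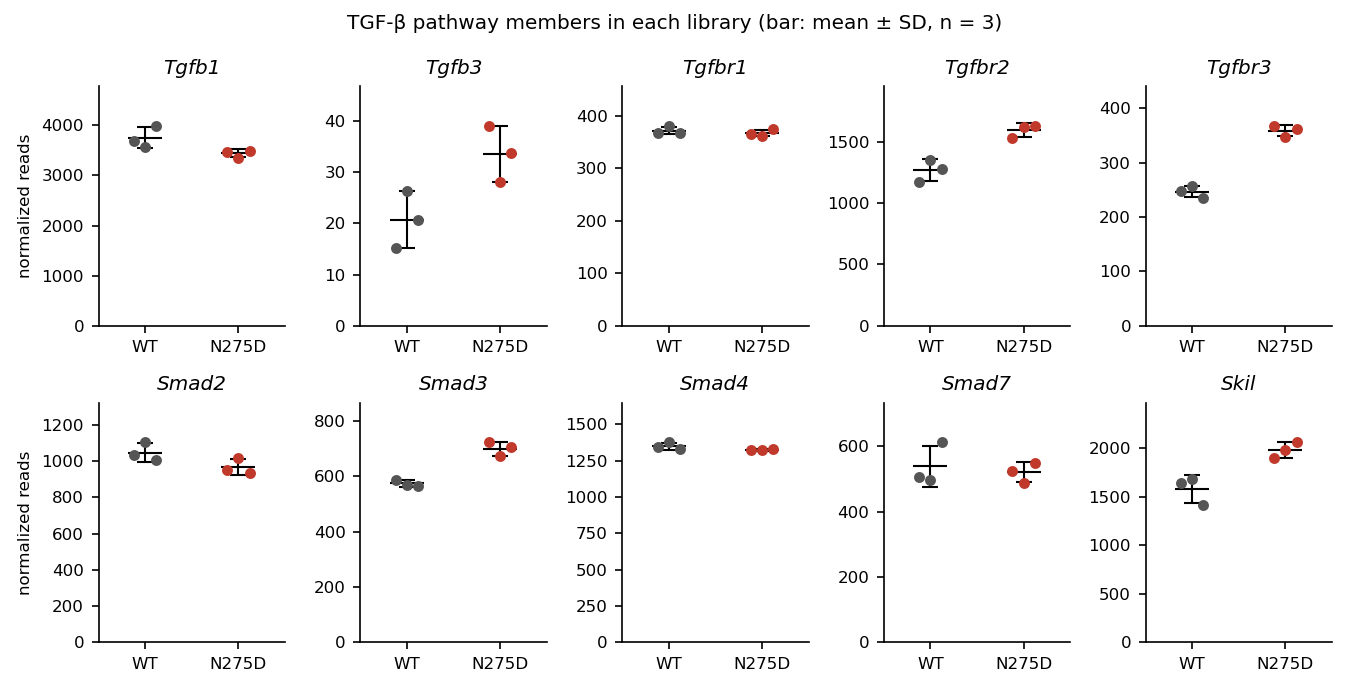
Normalized reads of each of the 10 genes (vertical axis, each panel with its own scale) in the 3 WT and 3 RORγtN275D libraries, with 1 point per library and bars for the mean ± SD (n = 3). The genotypes do not overlap for *Tgfb1*, *Tgfb3*, *Tgfbr2*, *Tgfbr3*, *Smad3* and *Skil*, and do overlap for the other 4 genes.

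*Tgfb1*, which encodes the main TGF-β isoform of lymphocytes, was slightly lower in RORγtN275D cells, whereas *Tgfb3*, an isoform that pathogenic Th17 cells are known to make, was higher from a very low level. *Tgfb1* (gene 21803, chromosome 7, 25687002 to 25705077, mm10) had 3694, 3577 and 3987 normalized reads in WT replicates 1, 2 and 3, and 3478, 3348 and 3497 in RORγtN275D replicates 1, 2 and 3. All 3 RORγtN275D libraries lay below all WT libraries, and WT replicate 3 was the highest. The mean fell by 8.31%, from 3753 ± 211 to 3441 ± 81.3 (SD, n = 3), with a log2 fold change of -0.12 (SE 0.04, limma adjusted p = 0.0254). This call was lost without WT replicate 3 (log2 fold change -0.08, adjusted p = 0.0518), without RORγtN275D replicate 1 (-0.13, adjusted p = 0.0546) and without RORγtN275D replicate 2 (-0.10, adjusted p = 0.120).

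*Tgfb3* (gene 21809, chromosome 12, 86056743 to 86079041) had 15.1, 26.2 and 20.6 normalized reads in the WT libraries and 38.9, 28.1 and 33.6 in the RORγtN275D libraries. The genotypes did not overlap, but the highest WT library and the lowest RORγtN275D library were separated by few reads. The means were 20.7 ± 5.54 and 33.5 ± 5.42 (SD, n = 3), and the log2 fold change of 0.69 was the largest of the 10 genes and had the widest interval (95% confidence interval 0.20 to 1.19, limma adjusted p = 0.0208). The call was lost without WT replicate 1 (0.50, adjusted p = 0.0965), without RORγtN275D replicate 1 (0.58, adjusted p = 0.0970) and without RORγtN275D replicate 3 (0.69, adjusted p = 0.0567), and it was not made by DESeq2 (0.70, adjusted p = 0.0821). *Tgfb3* shares exon bases with 2 genes of the opposite strand, neither of which is in the table, and the strand setting used in counting is not given in the sources used here.

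Of the 3 receptors, the ligand-binding type II and type III receptors rose in RORγtN275D cells and the type I receptor did not pass the test. *Tgfbr2* (gene 21813, chromosome 9, 116087695 to 116175363) had 1175, 1354 and 1278 normalized reads in WT libraries and 1528, 1622 and 1627 in RORγtN275D libraries. Every RORγtN275D library exceeded every WT library. The mean was 25.5% higher, at 1592 ± 55.4 against 1269 ± 89.8 (SD, n = 3), with a log2 fold change of 0.33 (SE 0.05, limma adjusted p = 9.28e-05).

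*Tgfbr3* (gene 21814, chromosome 5, 107106567 to 107289629) had 247, 256 and 236 normalized reads in WT libraries and 367, 347 and 362 in RORγtN275D libraries. The 3 values within each genotype were close together and the genotypes were clearly apart. The mean rose by 45.7%, from 246 ± 10.3 to 359 ± 10.6 (SD, n = 3), and the log2 fold change of 0.54 (SE 0.07, limma adjusted p = 1.02e-05) was larger in size than that of 88.5% of all tested genes. *Tgfbr3* shares exon bases with 1 gene of the same strand that is not in the table.

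*Tgfbr1* (gene 21812, chromosome 4, 47353222 to 47414926), the type I receptor kinase, had 367, 380 and 367 normalized reads in WT libraries and 364, 362 and 374 in RORγtN275D libraries. The values of the genotypes overlapped. The log2 fold change was -0.02 with a 95% confidence interval of -0.15 to 0.12 (limma adjusted p = 0.829), an interval that lies below the estimates for *Tgfbr2* and *Tgfbr3*. Within a library, the ratio of *Tgfbr1* to *Tgfbr2* reads was 0.294 ± 0.02 in WT and 0.231 ± 0.01 in RORγtN275D libraries (SD, n = 3). On the log2 scale the ratio differed by -0.35, with no overlap between genotypes.

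**Figure D2:**
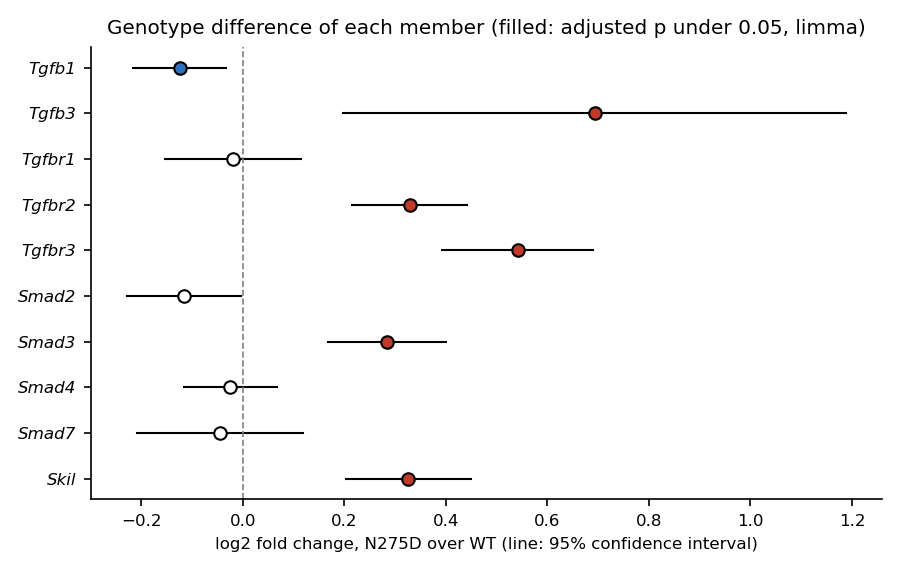
Log2 fold change (horizontal axis, N275D over WT) of each of the 10 genes, with its 95% confidence interval from limma. Filled points passed an adjusted p of 0.05, with *Tgfb1* at -0.12 on the lower side and the others between *Smad3* at 0.28 and *Tgfb3* at 0.69, and open points (*Tgfbr1*, *Smad2*, *Smad4* and *Smad7*) did not.

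The receptor-regulated SMADs, the substrates of TGFBR1, differed from each other. *Smad3* (gene 17127, chromosome 9, 63646766 to 63757994) had 587, 570 and 567 normalized reads in WT libraries and 723, 672 and 705 in RORγtN275D libraries. All RORγtN275D libraries were above all WT libraries. The mean rose by 21.8%, from 575 ± 11.1 to 700.0 ± 25.7 (SD, n = 3), with a log2 fold change of 0.28 (SE 0.05, limma adjusted p = 0.000451).

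*Smad2* (gene 17126, chromosome 18) had 1034, 1103 and 1006 normalized reads in WT libraries and 949, 1017 and 933 in RORγtN275D libraries. RORγtN275D replicate 2 lay above WT replicate 3, so the genotypes overlapped. The log2 fold change was -0.12 (SE 0.05, limma adjusted p = 0.0821), which did not pass, although without WT replicate 3 it was -0.14 and passed (adjusted p = 0.0178). The ratio of *Smad3* to *Smad2* reads was 0.568, 0.517 and 0.563 in the WT libraries and 0.761, 0.661 and 0.756 in the RORγtN275D libraries. The ratio was thus higher in every RORγtN275D library, by 0.40 on the log2 scale.

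*Smad4*, the common partner that both SMADs need, and *Smad7*, the inhibitory SMAD that TGF-β itself induces, did not pass the test. *Smad4* (gene 17128, chromosome 18) had 1344, 1376 and 1330 normalized reads in WT libraries and 1322, 1325 and 1334 in RORγtN275D libraries. The spread of *Smad4* was small and the genotypes overlapped, with a log2 fold change of -0.02 (95% confidence interval -0.12 to 0.07, limma adjusted p = 0.660). *Smad7* (gene 17131, chromosome 18) had 506, 498 and 612 normalized reads in WT libraries and 524, 489 and 549 in RORγtN275D libraries. The highest and the second highest values of *Smad7* came from different genotypes, WT replicate 3 and RORγtN275D replicate 3, and its log2 fold change of -0.04 (95% confidence interval -0.21 to 0.12, limma adjusted p = 0.655) was 0.05 without WT replicate 3. For neither gene does the missed threshold show that the genotypes were alike. The intervals run from -0.12 and -0.21 at the lower end to 0.07 and 0.12 at the upper end.

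*Skil* (gene 20482, chromosome 3, 31095058 to 31122923) encodes SnoN, which holds SMAD target genes repressed and is itself a SMAD target. It had 1640.1, 1687 and 1419 normalized reads in WT libraries and 1898, 1980.3 and 2058 in RORγtN275D libraries. Every RORγtN275D library was higher than every WT library, and WT replicate 3 was the lowest. The mean rose by 25.1%, from 1582 ± 143 to 1979 ± 80.2 (SD, n = 3), with a log2 fold change of 0.33 (SE 0.06, limma adjusted p = 0.000221). Its relative *Ski*, a repressor of the same kind, was lower in RORγtN275D cells, at 2505 ± 86.5 against 2842 ± 48.3 (log2 fold change -0.18, limma adjusted p = 0.00140).

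Ratios of the reads of 2 members within a library do not depend on how that library was scaled, and 6 pairs were compared. The log2 ratios given here add 1 to each value, which brings back some dependence on scale where reads are few. For *Tgfb3* over *Tgfb1* the difference was 0.84 with 0.1 added and 0.64 with 10 added. The log2 ratio of N275D differed from that of WT by 0.82 for *Tgfb3* over *Tgfb1*, by -0.35 for *Tgfbr1* over *Tgfbr2*, by 0.21 for *Tgfbr3* over *Tgfbr2*, by 0.40 for *Smad3* over *Smad2*, by -0.33 for *Smad7* over *Smad3* and by 0.37 for *Skil* over *Smad7*. In all 6 pairs the genotypes did not overlap. Each pair holds a member whose own values did not overlap, a pattern of 57.7% of all tested genes. The ratios therefore partly restate the results of single members, and the share among gene pairs in general was not computed. The two-sided exact permutation p was 0.1 for each pair, the smallest value that 3 against 3 libraries allow, and remained 0.1 after adjustment over the 6 pairs, so none could pass 0.05. The *Smad7* to *Smad3* ratio was 0.861, 0.874 and 1.08 in WT libraries and 0.725, 0.727 and 0.779 in RORγtN275D libraries. WT replicate 3 held the highest *Smad7* to *Smad3* ratio and, at 2.32, the lowest *Skil* to *Smad7* ratio, against 3.24 and 3.38 in the other WT libraries and 3.62 to 4.05 in RORγtN275D libraries. Without WT replicate 3 the log2 difference was 0.20 for *Skil* over *Smad7* and -0.22 for *Smad7* over *Smad3*.

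**Figure D3:**
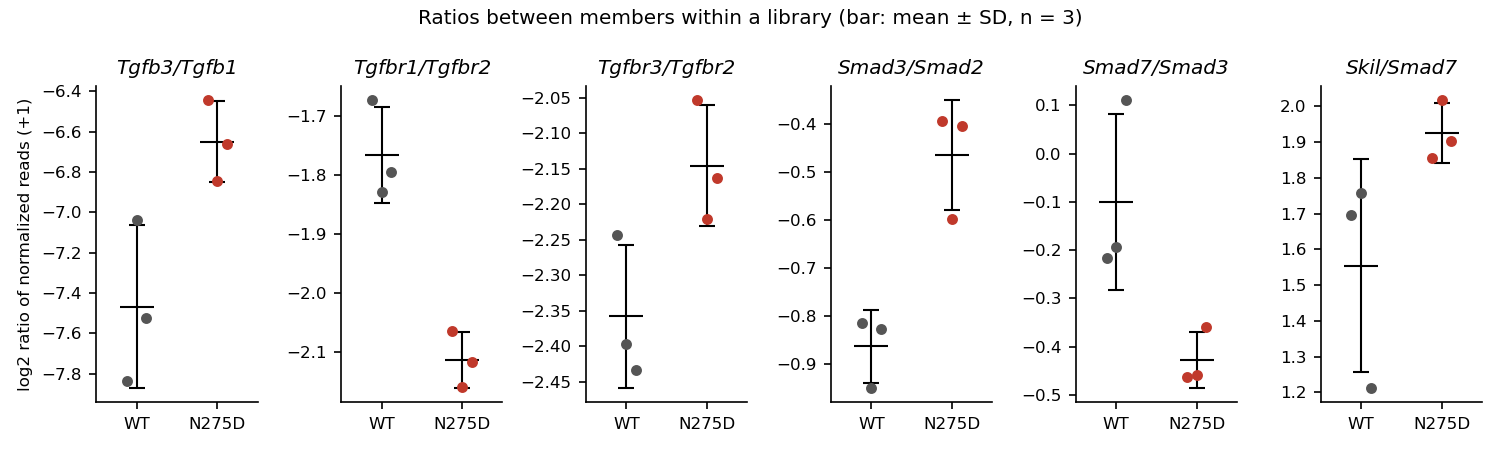
Log2 ratio of normalized reads between members of the same library (vertical axis) for the 6 pairs, with 1 point per library. The RORγtN275D points lie wholly above the WT points for *Tgfb3*/*Tgfb1*, *Tgfbr3*/*Tgfbr2*, *Smad3*/*Smad2* and *Skil*/*Smad7*, and wholly below them for *Tgfbr1*/*Tgfbr2* and *Smad7*/*Smad3*.

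Levels of different genes were compared per kilobase of the longest annotated transcript. *Tgfb1* was the most abundant member, at a mean over the 6 libraries of 1654 normalized reads per kb, followed by *Smad4* at 396, *Skil* at 265 and *Tgfbr2* at 177. *Smad3* at 125, *Smad2* at 124 and *Smad7* at 124 overlapped their neighbours in this order and could not be ranked. *Tgfbr1* at 64.2, *Tgfbr3* at 49.7 and *Tgfb3* at 8.01 normalized reads per kb closed the order. Apart from the *Smad3*, *Smad2* and *Smad7* group, each gene was above the next in 6 of 6 libraries. Per kb, *Smad3* was above *Smad2* in 0 of 3 WT libraries and in 3 of 3 RORγtN275D libraries. Which transcript lengths the cells used was not measured, and a shorter *Smad2* transcript would raise its level per kb in both genotypes alike. The order of *Smad3* and *Smad2* rests on the lengths taken, 5090 and 8089 bases. With a short enough *Smad2* transcript, *Smad2* would be above *Smad3* in all 6 libraries. The genotype difference in the ratio of their reads does not depend on these lengths.

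**Figure D4:**
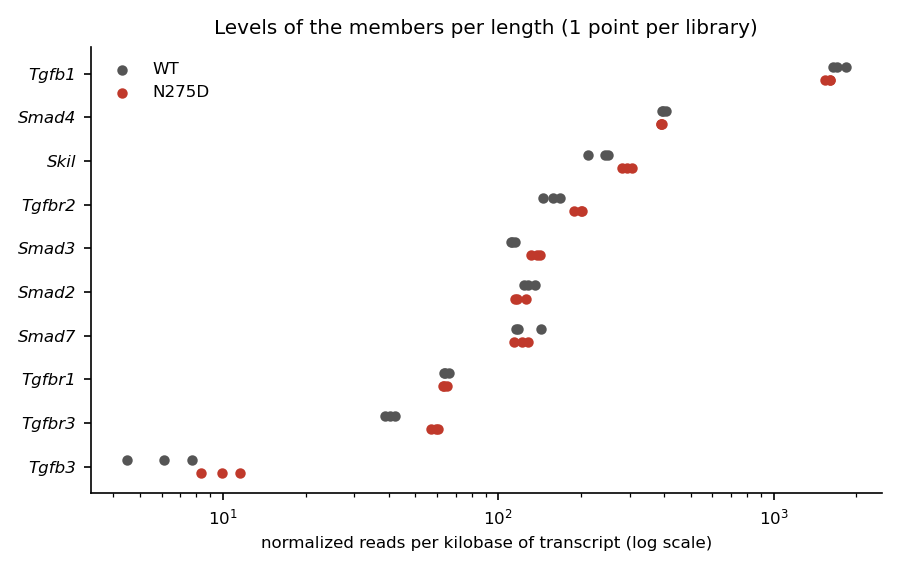
Normalized reads per kilobase of transcript (horizontal axis, log scale) of the 10 genes in the 3 WT and 3 RORγtN275D libraries, 1 point per library, ordered by mean. *Tgfb1*, at a mean of 1654, stands far above the rest, *Smad3*, *Smad2* and *Smad7* share one range, and *Tgfb3* is lowest at 8.01.

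Promoter sequences were found for only 4 of the 10 members and are shown here. They lie just before the transcript starts of *Tgfb1* (lower), *Tgfbr1* (not called), *Tgfbr2* (higher) and *Smad3* (higher). They are the 250 bases upstream of the start, from RefSeq (GRCm38.p6), written 5′ to 3′ on the strand of the gene, with capitals for the GC box GGGCGG on either strand, a site known to bind SP1. The windows are chr7:25686752-25687001 on the plus strand for *Tgfb1*, chr4:47352972-47353221 on the plus strand for *Tgfbr1*, chr9:116175364-116175613 on the minus strand for *Tgfbr2* and chr9:63757995-63758244 on the minus strand for *Smad3*, and none holds an annotated exon base.
Tgfb1: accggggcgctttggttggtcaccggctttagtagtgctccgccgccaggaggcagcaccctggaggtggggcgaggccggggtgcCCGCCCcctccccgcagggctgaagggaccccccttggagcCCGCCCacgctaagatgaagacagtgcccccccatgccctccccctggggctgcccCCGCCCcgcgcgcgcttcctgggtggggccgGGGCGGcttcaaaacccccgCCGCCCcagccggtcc
Tgfbr1: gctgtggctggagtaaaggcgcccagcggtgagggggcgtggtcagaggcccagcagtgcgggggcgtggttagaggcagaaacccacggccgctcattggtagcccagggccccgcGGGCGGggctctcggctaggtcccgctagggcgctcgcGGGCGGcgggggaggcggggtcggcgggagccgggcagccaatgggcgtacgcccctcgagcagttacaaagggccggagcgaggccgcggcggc
Tgfbr2: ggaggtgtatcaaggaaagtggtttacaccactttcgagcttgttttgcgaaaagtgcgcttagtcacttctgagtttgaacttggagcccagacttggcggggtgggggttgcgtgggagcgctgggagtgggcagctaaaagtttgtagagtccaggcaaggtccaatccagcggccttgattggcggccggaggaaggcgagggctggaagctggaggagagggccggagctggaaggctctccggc
Smad3: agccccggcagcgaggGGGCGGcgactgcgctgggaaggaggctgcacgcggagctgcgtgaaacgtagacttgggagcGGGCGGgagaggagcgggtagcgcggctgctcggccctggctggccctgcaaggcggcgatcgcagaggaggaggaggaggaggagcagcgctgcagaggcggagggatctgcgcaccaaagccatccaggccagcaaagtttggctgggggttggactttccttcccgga

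*Tgfb1* held 5 GC boxes, *Tgfbr1* 2 and *Smad3* 2, and *Tgfbr2* held 0, where 32.7% of all 32851 windows of this length held at least 1. The GC content was 75.2% for *Tgfb1*, 74.8% for *Tgfbr1*, 69.2% for *Smad3* and 58.4% for *Tgfbr2*, against a median of 52.4% over all windows. The SMAD box CAGAC, searched on both strands, was found in 1 of these 4 windows, 160 bases before the start of *Tgfbr2* (42.2% of all windows hold it). The bases that follow the *Tgfbr2* window were found near the start of 0 GENCODE transcripts of that gene. For each other window they were found in 1, so the *Tgfbr2* start is less certain. The core of the ROR element (AGGTCA, 14.0% of all windows), the core of the hypoxia response element (ACGTG, 16.6%) and the TATA box (TATAAA, 12.4%), also searched on both strands, were found in 0 of the 4 windows. None of these motifs contains another. A second annotated start of *Tgfbr1* (chr4:47385966-47386215 upstream) held 0 GC boxes and 1 SMAD box, 203 bases before it. These matches describe letters only, and binding was not measured in these libraries.

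Around the 10 genes, 48 further genes of the pathway were listed by role, of which 42 were tested. Of these, 18 were higher, 8 lower and 16 not called, which is 61.9% called against 50.9% of all tested genes, with a median log2 fold change of 0.17. Among the 12 genes for ligand storage and release, 9 were tested, and 5 rose (*Lrrc32*, *Itgav*, *Ltbp3*, *Itgb8* and *Furin*), 1 fell (*Nrros*) and 3 were not called, with a median of 0.41. *Itgav*, the αv chain of the integrins that release active TGF-β, rose from 1585 ± 40.0 to 2332 ± 36.3 normalized reads (log2 fold change 0.56, limma adjusted p = 1.90e-08). Its partner in T cells, *Itgb8*, rose from 183 ± 5.56 to 245 ± 21.6 (0.42, adjusted p = 0.000692).

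The surface anchors of latent TGF-β moved in opposite directions. *Lrrc32* (GARP), the anchor of regulatory T cells, was at 151 ± 29.5 normalized reads in WT and 230 ± 35.0 in RORγtN275D libraries (0.61, limma adjusted p = 0.000981). *Nrros*, the anchor best known from microglia and other myeloid cells, fell from 759 ± 54.1 to 527 ± 13.3 (-0.52, adjusted p = 3.02e-06). Of the tested myeloid markers, *Adgre1* (F4/80) fell from 22.6 ± 3.22 to 6.64 ± 3.05 normalized reads (-1.70, adjusted p = 0.000512) and *Cd14* rose from 11.3 ± 3.56 to 22.9 ± 0.96 (0.99, adjusted p = 0.00673), and their part in the *Nrros* result was not tested. *Furin*, the protease that cleaves the TGF-β precursor, rose by a small step, from 21102 ± 991 to 23796 ± 238 (0.17, adjusted p = 0.000756).

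**Figure D5:**
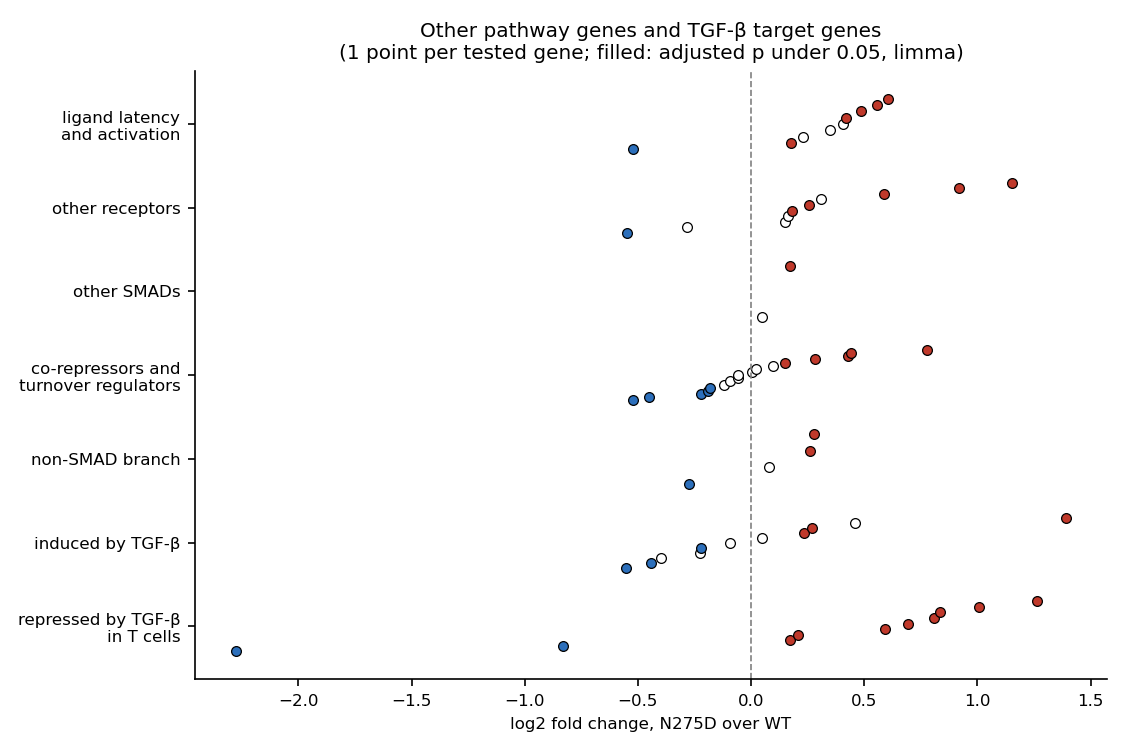
Log2 fold change (N275D over WT) of the tested genes of each list of pathway and target genes, with 1 point per gene, filled where it passed an adjusted p of 0.05. List medians run from -0.09 for genes known to be induced by TGF-β to 0.64 for genes known to be repressed by it.

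Of 11 other receptors of the superfamily, 10 were tested, and 60.0% of these were called, against 50.9% of all tested genes. Among these receptors 5 were higher, 1 was lower and 4 were not called, with a median of 0.22. The higher ones were the activin and BMP receptors *Acvr1c*, *Acvrl1*, *Acvr2a*, *Bmpr2* and *Bmpr1a*. *Acvrl1* (ALK1), a type I receptor, rose from 50.6 ± 9.77 to 95.7 ± 8.48 normalized reads (0.92, limma adjusted p = 0.000120). *Eng* (endoglin), the accessory receptor related to *Tgfbr3*, moved the other way, from 423 ± 41.5 to 288 ± 13.8 (-0.55, adjusted p = 2.64e-05). The largest fold change in this list, 1.15 for *Acvr1c*, rests on means of 7.67 and 17.6 normalized reads.

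Of 4 other SMADs, *Smad5*, which acts in BMP signalling, rose (0.17, limma adjusted p = 0.0237) and *Smad1* was not called. *Smad6*, the other inhibitory SMAD, and *Smad9* had means too low to test, with 0 in some libraries.

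Among 17 co-repressors and regulators of receptor and SMAD turnover, 5 rose, 5 fell and 7 were not called, with a median of -0.06. The share called was 58.8%, against 50.9% of all tested genes. *Dab2*, an adaptor for receptor trafficking, rose from 105 ± 2.57 to 180 ± 7.91 normalized reads (0.78, limma adjusted p = 4.29e-06). *Smurf1*, a ubiquitin ligase that works with SMAD7, rose from 539 ± 34.0 to 726 ± 37.2 (0.43, adjusted p = 3.07e-05), and *Zfyve9* (SARA), which brings SMAD2 and SMAD3 to the receptor, rose by 0.44 (adjusted p = 0.00152). *Strap*, which helps SMAD7 hold the receptor, fell from 4632 ± 328 to 3216 ± 37.9 (-0.52, adjusted p = 1.51e-07), and the SMAD co-repressor *Tgif2* fell from 661 ± 11.9 to 483 ± 8.73 (-0.45, adjusted p = 4.94e-06). In the non-SMAD branch, *Tab2* (0.28) and *Traf6* (0.26) rose, their kinase partner *Map3k7* (TAK1) fell (-0.27) and *Tab1* was not called.

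Target genes were read from lists of genes known to respond to TGF-β. Of 13 genes known to be induced, 11 were tested, and 3 were higher, 3 lower and 5 not called, with a median of -0.09. The share called was 54.5%, near the 50.9% of all tested genes. *Nt5e* (CD73, which makes adenosine) rose from 59.8 ± 8.42 to 157 ± 13.7 normalized reads (1.39, limma adjusted p = 2.17e-07), and *Gadd45b* rose by 0.24. *Junb*, an AP-1 subunit, fell from 18599 ± 270 to 12683 ± 378 (-0.55, adjusted p = 1.59e-09). *Cdkn1a* (p21) fell from 12172 ± 568 to 8963 ± 232 (-0.44, adjusted p = 1.23e-07), and *Pmepa1*, a SMAD-induced inhibitor of receptor signalling, fell from 896 ± 84.0 to 769 ± 66.7 (-0.22, adjusted p = 0.0166). *Itgae* (CD103) and *Foxp3* had low means, 14.3 and 50.9 in WT and 20.6 and 38.2 in RORγtN275D libraries, and did not pass the test.

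All 10 genes known to be repressed by TGF-β in T cells were tested and called, 8 higher and 2 lower, with a median of 0.64. Of all tested genes, 50.9% were called, 24.7% higher and 26.1% lower. *Il12rb2*, the IL-12 receptor chain of Th1 cells, rose from 1162 ± 17.1 to 2790.0 ± 31.4 normalized reads (1.26, limma adjusted p = 9.25e-13). *Prf1* (perforin) rose from 53.6 to 109 (1.01, adjusted p = 7.65e-06), *Eomes* by 0.69 and *Gata3* by 0.59. *Ifng* (0.81), *Stat4* (0.84), *Gzmb* (0.21) and *Myc* (0.17) were also higher. The largest change of this list was downward, in *Il2*. *Il2* fell from 10361 ± 262 to 2142 ± 69.4 normalized reads (-2.27, limma adjusted p = 3.32e-16). *Tbx21* was lower too (-0.83, limma adjusted p = 5.19e-08). Many of these genes answer to other signals too, and this list was assembled with earlier results of these libraries known, so its count says nothing about TGF-β signalling in the cultures.

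Markers of other cells were not all equal between genotypes, and those of B cells, platelets, CD8 and NK cells, myeloid cells and fibroblasts were low. Among all tested genes, 50.9% were called, 24.7% higher and 26.1% lower. The few tested markers of each list are too few to set against these shares. Both tested B cell markers were higher in RORγtN275D cells, with a summed level over the 3 listed markers of 57.5 to 73.6 normalized reads in WT and 108 to 156 in RORγtN275D libraries, and *Ms4a1* at 0 in some libraries. The platelet markers, of which 1 of 4 could be tested and was higher (*Itga2b*), summed to 29.3 to 38.3 and 68.1 to 78.9, with *Ppbp* and *Gp9* at 0 in some libraries. The CD8 and NK markers, 1 higher of 2 tested, summed to 120.1 to 142 and 172 to 179, with *Klrb1c* at 0 in some libraries. The myeloid sums (46.4 to 52.5 and 43.1 to 56.9, *Cd14* higher and *Adgre1* lower of 2 tested, *Csf1r* at 0 in some) and the fibroblast sums (53.0 to 62.6 and 54.3 to 72.9, 1 higher of 2 tested, *Col1a2* and *Col3a1* at 0 in some) overlapped. The regulatory T cell markers, 2 higher of 4 tested, summed to 26560 to 27958 and 32934 to 33863, a sum made up almost wholly of *Il2ra*. The starting CD4+ T cells had been enriched by negative magnetic selection, a step meant to remove other cell types before culture. The part of these cells in the differences of the TGF-β genes was not tested, and in RNA from whole cultures fewer cells of a type and less RNA per cell cannot be told apart.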

How the data were processed

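Per the labels and the methods, poly-A RNA was made into directional libraries and sequenced in pairs, and the authors aligned reads to mm10 with STAR, counted them per gene with featureCounts and scaled them with DESeq2. Tool versions and the strand setting are not given in the sources used here. The deposited signal values are normalized read counts. In each library all values (100.0%) were whole multiples of a single factor, within a relative 1e-06, so reads were recovered by division. The authors' deposited log2 fold change and q-value columns were not used.

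The 2 genotypes (3 libraries each) were compared with limma 3.58.1 (R 4.3.3, trended prior) on log2(value + 1), keeping the 11908 genes whose mean reached 10, with Benjamini-Hochberg adjustment and two-sided calls at an adjusted p under 0.05. The prior had 12.0 degrees of freedom, drawn from the spread of other genes of like level. The fit was tested on simulated data. Alternatives were other pseudocounts, filters and scalings (TMM, quantile), no trend, library weights, a 2-fold minimum, a replicate block, each library left out, and edgeR 4.0.16 and DESeq2 1.42.0 on recovered reads. The members and lists were chosen with earlier results of these data known. All members were named, and of each list up to 6 called genes with the largest change, plus genes needed to spell out counts of 5 or fewer; some genes under this rule are not reported here. *Ski*, set beside *Skil*, and the uncalled *Itgae* and *Foxp3* were named after their values were seen. The GC box and TATA box were chosen after the sequences had been read. Lengths are those of the longest GENCODE transcript paired with a RefSeq mRNA. Promoter windows were found for 4 of the 10 members.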

Additional observations from a re-analysis of the deposited data

How the results depend on the processing

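*Tgfbr2*, *Tgfbr3*, *Smad3* and *Skil* were called higher under all alternatives run except the 2-fold minimum. Their log2 fold changes were 0.28 to 0.38, 0.48 to 0.57, 0.26 to 0.31 and 0.25 to 0.37, in that order. The 6 ratios kept their direction with both other pseudocounts and with each library left out. Since the genotypes did not overlap in any pair, leaving 1 library out could not have reversed a direction. The replicate block leaves a difference of means unchanged by construction, so it tests nothing for the ratios. *Skil* over *Smad7* ran from 0.20 (without WT replicate 3) to 0.47 with 1 library left out, against 0.37. *Tgfb1* lost its call under quantile scaling (-0.060, limma adjusted p = 0.270) and without a trended prior (-0.12, adjusted p = 0.108), and ran from -0.16 to -0.079 with 1 library left out, where it was lost without WT replicate 3, RORγtN275D replicate 1 or RORγtN275D replicate 2. *Tgfb3* lost its call under quantile scaling (0.50, adjusted p = 0.0922) and by DESeq2 (0.70, adjusted p = 0.0821), ran from 0.50 to 0.87 with 1 library left out, where it was lost without WT replicate 1, RORγtN275D replicate 1 or RORγtN275D replicate 3, and could not be tested with a minimum mean of 100. *Smad2* passed as lower with library weights (-0.12, adjusted p = 0.0391) and without WT replicate 3, in a range of -0.15 to -0.078. *Smad4* turned to 0.0046 under quantile scaling. *Smad7* turned to 0.0049 with library weights, to 0.051 without WT replicate 3 and to 0.00055 without RORγtN275D replicate 2, in a range of -0.10 to 0.051. None of these reversed values passed the test.

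The count of members called higher (5) was 4 to 5 with 1 library left out and 0 with a 2-fold minimum. It was 4 under quantile scaling, with a minimum mean of 100 and by DESeq2. The count called lower (1) was 0 under quantile scaling, without a trend and with a 2-fold minimum, 2 with library weights, and 0 to 1 with 1 library left out, where it was 0 without RORγtN275D replicate 1 or 2. At the 2-fold minimum, edgeR and DESeq2 also called 0, and 7 members had an unadjusted limma p under 0.05. Apart from the construction of the 2-fold minimum, the cause was not tested.

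Same-numbered libraries of the 2 genotypes shared little deviation from their genotype means (correlations of -0.05, 0.04 and -0.08). With 3 libraries per genotype this cannot tell whether same-numbered cultures were set up together. With the replicate block 5727 genes were called, against 6056, and no call of a member changed. *Tgfb3* had the fewest reads of the 10 genes.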
